A study of Homo sapiens with 9 samples.

Results

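The comparison described here set MDA-MB-231 cells kept for 24 h in TEPA, a polyamine that chelates copper, against untreated cells of the same line. MDA-MB-231 is an established human triple-negative breast cancer line, grown here in medium with 10% serum, and the labels name no genetic change in any group. The members are 6 of the 9 libraries of the series, 3 per group, chosen by the group and time in their sample titles. The other 3 libraries, from cells kept 8 h in TEPA, shared the estimate of the spread between replicates and are described only where their values are named. The labels give a dose of 8 mM for this line, whereas the study's sequencing methods give 4 mM, and the files do not settle which applies. The labels name no vehicle and no harvest time for the untreated cells, so the action of TEPA and a day of further culture cannot be told apart. Nothing says that the replicates came from separate cultures, so the p-values below measure only the spread between these libraries, which may be technical.

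Copper is the redox metal of cytochrome c oxidase, of the superoxide dismutase SOD1 and of the lysyl oxidases that crosslink collagen and elastin. It enters cells through the SLC31A1 transporter, travels on small chaperones, and leaves through the ATPases ATP7A and ATP7B. The metallothioneins are small cysteine-rich proteins that hold zinc and copper, and their genes are switched on by MTF1, a zinc-sensing transcription factor that binds metal response elements in their promoters. Polyamines such as TEPA can also bind other divalent metals, zinc among them.

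RNA was read as paired-end, strand-specific, poly(A)-selected libraries, and each library held between 34633755 and 49342659 counted fragments. Values are given as CPM, counts scaled to library size, which are not corrected for gene length and are therefore compared only within a gene. Changes are given on the log2 scale, TEPA 24 h minus untreated, with the standard error (SE) of the edgeR fit. Untreated libraries 1 and 2 differed most among the replicate pairs of the 3 groups, with a variance 23.9 times that of sampling, against 2.51 to 9.57 times in the other pairs. All 14 marker genes of the MDA-MB-231 line were expressed. Of 12 genes that define other breast cancers, 6 were too low to test, with PGR and KRT14 at 0 counts and ESR1 at no more than 9 in any of the 9 libraries. The 6 that were tested summed to 96.6 to 111 CPM in the untreated libraries and 75.3 to 77.9 CPM at 24 h, most of it from ERBB2, with 2 called higher and 1 lower. Of 19 markers of leukocytes, endothelium, glioma and neuroblastoma, 15 were too low to test. In bulk RNA, fewer cells of a kind and less RNA per cell cannot be told apart.

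After a day of TEPA 52.5% of the expressed genes had changed, most of them by small amounts. Of 16556 genes tested, 4253 (25.7%) were higher and 4435 (26.8%) were lower at an adjusted p under 0.05 (edgeR's quasi-likelihood test, Benjamini-Hochberg). With a log2 change beyond 0.5 in addition, 1695 genes (10.2%) rose and 1400 (8.46%) fell. The median change over all genes was 0.00232. These shares are the background for every gene list below. The background depended on abundance: among the 3311 genes with the highest mean level (75.9 to 8534 CPM) 24.0% were higher and 40.4% lower, with a median change of -0.0511. In the 3312 genes with the lowest level the shares were 15.9% and 8.61%, with a median of 0.14. Lists made of abundant housekeeping genes are therefore read against the first of these pairs. A list count near these shares is not read as a change of that list. In 28.4% of all tested genes every 24 h library was above every untreated one, and in 28.9% below. Apart from fixed key genes and lists with at most 5 tested genes, changed genes were named only if called and without overlap. For them a lack of overlap is a condition of being named, and its mention below is no further evidence.

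**Figure D1:**
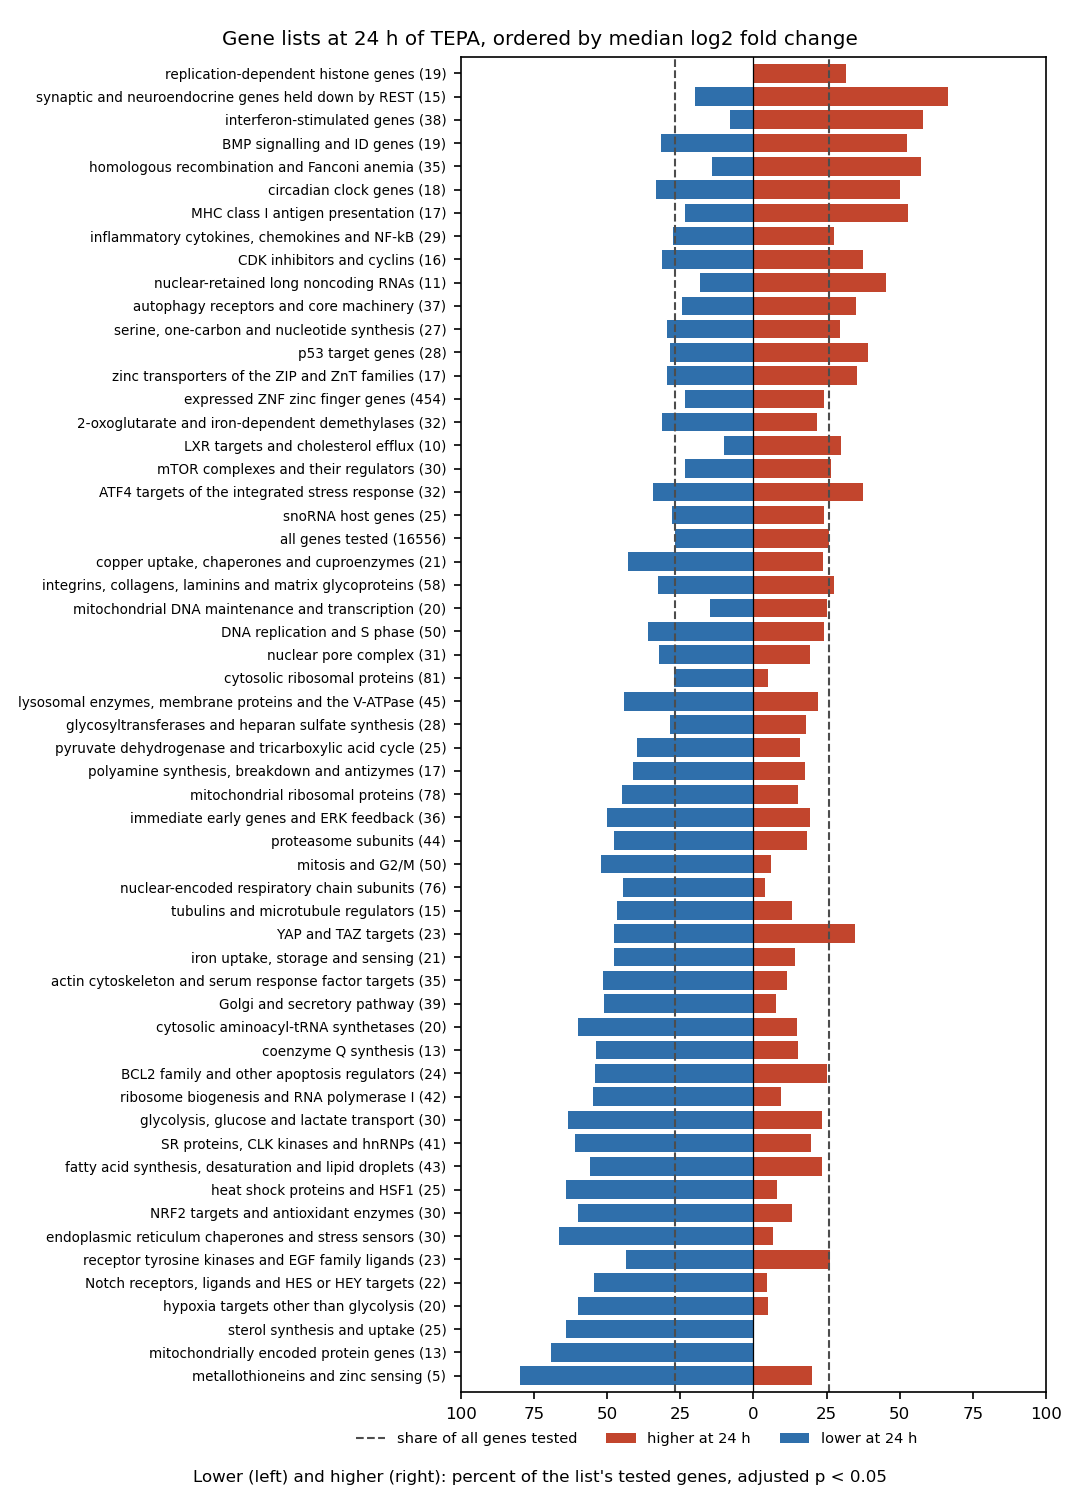
Share of the tested genes of each list that were higher (red, right) or lower (blue, left) at 24 h of TEPA at an adjusted p under 0.05, with the number of tested genes in brackets and lists ordered by median log2 fold change. Dashed lines mark the shares over all genes tested, 25.7% higher and 26.8% lower. Metallothioneins, mitochondrially encoded genes and sterol synthesis stand at the bottom, and histone, synaptic and interferon-stimulated genes at the top.

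Among called genes with a mean of at least 100 counts and groups that did not overlap, the largest rises were in SYT11 and SYP. SYT11, a vesicle protein of the synaptotagmin family (chr1:155859567-155885199, plus strand, hg38), was at 0.40, 0.372 and 0.685 CPM in the untreated libraries and 13.7, 12.8 and 10.7 CPM at 24 h. SYP, which encodes the synaptic vesicle membrane protein synaptophysin (chrX:49187815-49200218, minus strand), was at 0.986, 0.635 and 1.14 CPM in the untreated libraries and 10.5, 11 and 9.98 CPM at 24 h. In both genes the groups, which had to be separate to be listed here, lay far apart. SYT11 rose by 4.68 ± 0.18 (SE) on the log2 scale, a 25.7-fold change with an edgeR adjusted p of 2.30e-11, and SYP by 3.53 ± 0.15, an 11.5-fold change. Other large rises were in the transcription factor gene ZSCAN31 (2.62), the antisense RNA FBXL19-AS1 (2.41), the mitochondrial arginase ARG2 (2.39), the basal keratin KRT15 (2.37), the surface sialomucin CD34 (2.29), the membrane-bound transcription factor CREB3L3 (2.20) and the cytochrome P450 gene CYP2S1 (2.16). SERF1B also met the rule, at 2.34, but its value is uncertain, because SERF1A is a near-identical copy and a single library carried it. It stood at 1.49, 1.53 and 14.5 CPM in the treated libraries, and without TEPA 24 h replicate 3 the change was 0.45 with an edgeR adjusted p of 0.149.

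Under the same conditions the largest fall was in UQCC3, an assembly factor of the ubiquinol-cytochrome c reductase complex of the respiratory chain (chr11:62670273-62673686, plus strand). Its level was 24.5, 29.5 and 25.8 CPM in the untreated libraries and 1.9, 1.97 and 2.2 CPM at 24 h. The groups were far apart, and the log2 change of -3.73 ± 0.094 (SE) was a 13.2-fold drop with an edgeR adjusted p of 8.49e-13. COQ3, a methyltransferase of coenzyme Q synthesis (chr6:99369401-99394195, minus strand), was at 8.18, 10.5 and 9.59 CPM in the untreated libraries and 1.47, 1.48 and 2.36 CPM at 24 h. It changed by -2.44 ± 0.15. Large falls were also found in the kinase NEK3 (-2.74), LOXL1, a copper-dependent amine oxidase of elastic fibres (-2.40), the metallothionein MT1E (-2.39), the stress cytokine GDF15 (-2.38), TMOD2, which caps actin filaments (-2.27), SUSD5 (-2.23) and the zinc finger gene ZNF619 (-2.91), which overlaps ZNF620 on the same strand. IKBKGP1 met the rule at -3.23, but it is a pseudogene copy of IKBKG and its untreated libraries were at 1.17, 1.53 and 16.5 CPM. Without untreated replicate 3 its change was -1.02 with an edgeR adjusted p of 0.115.

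**Figure D2:**
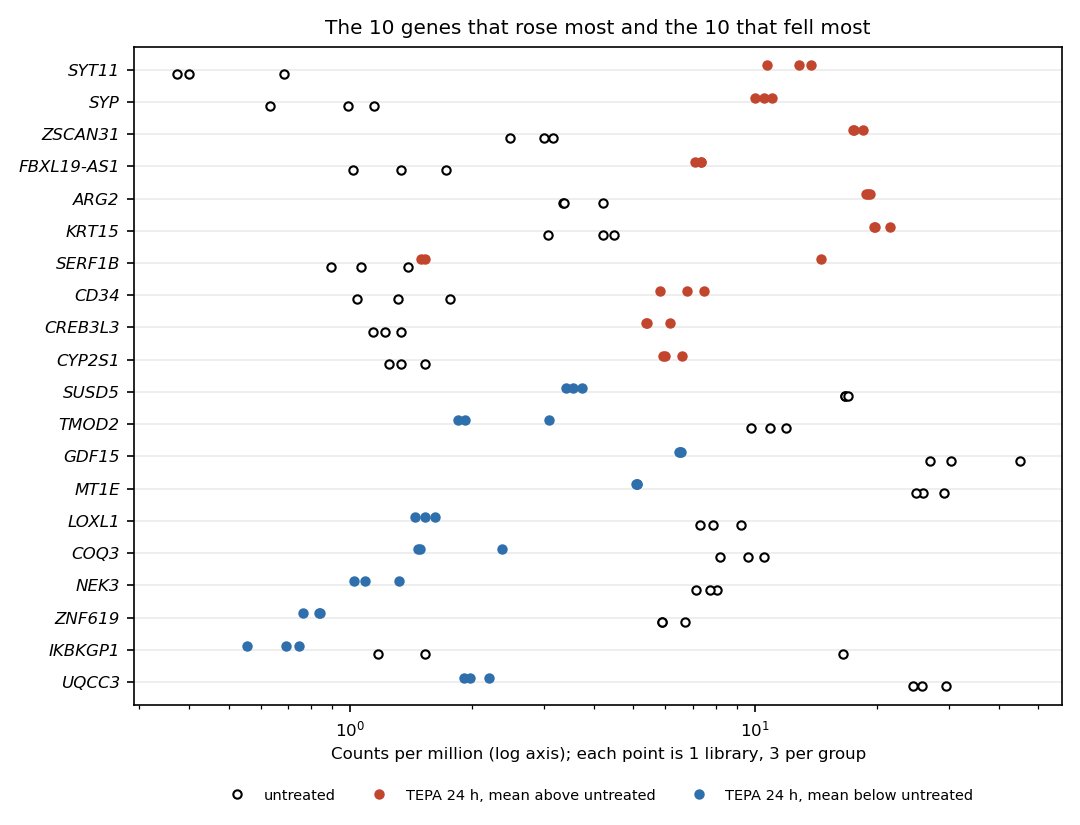
CPM on a log axis in each of the 3 untreated (open) and 3 TEPA 24 h (filled) libraries for the 10 genes that rose most and the 10 that fell most among called genes with at least 100 counts on average and groups that do not overlap. The groups are far apart for SYT11, SYP and UQCC3, whereas SERF1B and IKBKGP1 each rest on 1 high library.

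The metallothionein genes fell together. MT2A, the most abundant of them, was at 218, 204 and 248 CPM in the untreated libraries and 68.8, 86.2 and 65.9 CPM at 24 h. MT1X was at 8.85, 8.95 and 9.03 CPM in the untreated libraries and 1.92, 2.78 and 2.89 CPM at 24 h, and MT1E at 26, 24.9 and 29.2 CPM in the untreated libraries and 5.1, 5.07 and 5.09 CPM at 24 h. In all 3 genes every treated library lay below every untreated one. The log2 changes were -1.60 ± 0.088 for MT2A, -1.84 ± 0.12 for MT1X and -2.39 ± 0.075 for MT1E, with edgeR adjusted p-values of 9.70e-10, 6.92e-09 and 3.75e-12. Together the metallothionein genes held 0.0234% to 0.0283% of the counts of the untreated libraries and 0.00770% to 0.00961% of the treated ones, with an exact two-sided permutation p of 0.1, the smallest that 3 against 3 libraries can give. SLC30A1, the zinc exporter of the plasma membrane, was at 59.8, 65.8 and 71.4 CPM in the untreated libraries and 29.8, 28.3 and 34.4 CPM at 24 h. It fell by 2.14-fold (log2 change -1.09 ± 0.076). MTF1 itself was slightly higher, at 37.1, 36.3 and 36.7 CPM in the untreated libraries and 42.9, 44 and 41.4 CPM at 24 h (0.22 ± 0.044). Of the 12 genes of this list in the table, 5 passed the filter on low counts, and 4 of those 5 fell. MT1X overlaps an unnamed gene on its strand.

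The promoters of these genes are shown because the metal response element is the site that MTF1 binds. The element was searched as TGCACNC or TGCGCNC on both strands in the 250 bases before each start (RefSeq, GRCh38.p14). MT2A had 7 matches (chr16:56608334-56608583, plus strand), MT1X had 4 (chr16:56682220-56682469, plus strand) and SLC30A1 had 1 (chr1:211579162-211579411, minus strand), while MTF1 and both starts of SLC39A10 had 0. MT1E has no entry in the table used. Over all 35116 promoters, 24.8% held at least 1 match, 0.370% at least 4 and 0.0313% at least 7. The windows are shown 5′ to 3′ with the matches in capitals, to show how many matches each of these promoters holds.
MT2A: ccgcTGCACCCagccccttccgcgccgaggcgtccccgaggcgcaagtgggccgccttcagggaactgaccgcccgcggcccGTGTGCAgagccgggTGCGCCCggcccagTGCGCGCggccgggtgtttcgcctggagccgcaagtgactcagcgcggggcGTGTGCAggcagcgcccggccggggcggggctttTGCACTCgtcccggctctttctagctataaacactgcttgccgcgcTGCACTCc
MT1X: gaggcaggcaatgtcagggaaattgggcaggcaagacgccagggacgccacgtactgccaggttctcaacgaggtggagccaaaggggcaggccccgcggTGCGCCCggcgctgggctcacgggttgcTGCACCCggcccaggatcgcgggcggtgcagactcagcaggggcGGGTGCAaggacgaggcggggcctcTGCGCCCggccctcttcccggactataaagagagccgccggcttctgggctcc
SLC30A1: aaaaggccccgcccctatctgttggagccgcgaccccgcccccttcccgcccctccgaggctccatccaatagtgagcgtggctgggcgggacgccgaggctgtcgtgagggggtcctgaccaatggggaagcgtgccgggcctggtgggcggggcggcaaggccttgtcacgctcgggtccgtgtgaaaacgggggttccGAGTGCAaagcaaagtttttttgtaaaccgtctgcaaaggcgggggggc

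The zinc transporters that changed divided largely by family. Of 17 tested genes of the ZIP (import to the cytosol) and ZnT (export) families, 6 rose and 5 fell. All of the risers were ZIP genes, and all of the falls but SLC39A11 were in ZnT genes. The ZnT gene SLC30A1, which also fell, is counted with the metallothioneins above and not here. SLC39A10, a ZIP importer of the plasma membrane, was at 71.5, 69.5 and 72.7 CPM in the untreated libraries and 176, 162 and 183 CPM at 24 h. It rose 2.44-fold (1.29 ± 0.052) and was the member with the largest change. SLC39A6 (0.38) and SLC39A8 (0.36), 2 further importers, also rose. The exporter genes SLC30A3 (-0.89) and SLC30A4 (-0.60) and the ZIP member SLC39A11 (-0.64) fell.

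Genes of copper handling moved in both directions, each by less than 1 log2 unit. Of 21 tested, 5 rose and 9 fell, with a median change of -0.0182 (-0.0747 to -0.0140 with 1 library left out, the former without untreated replicate 2). The importer SLC31A1 was at 106, 99 and 102 CPM in the untreated libraries and 93.2, 94.5 and 93 CPM at 24 h, a change of -0.13 ± 0.038. SLC31A2, its relative in intracellular membranes, was at 16.9, 15.5 and 16.1 CPM in the untreated libraries and 24.4, 23.4 and 23.6 CPM at 24 h (0.56 ± 0.062), and the exporter ATP7A was at 13.9, 12.8 and 13.1 CPM in the untreated libraries and 18.2, 17.2 and 17.9 CPM at 24 h (0.42 ± 0.061). For these 3 genes the groups did not overlap. COMMD1, which binds ATP7B and takes part in copper export, was at 25.4, 23.8 and 24.9 CPM in the untreated libraries and 14.2, 15.8 and 13.8 CPM at 24 h (-0.76 ± 0.062), and the metalloreductase STEAP3 fell by 1.48-fold. COX19, a mitochondrial copper-delivery factor, rose by 0.46 and MEMO1 by 0.52. On the same strand MEMO1 overlaps DPY30, COX19 overlaps ADAP1, ATP7A overlaps PGK1 and C4orf46P2, and COMMD1 overlaps RPSAP26. The copper enzymes and chaperones SOD1 (-0.013) and CCS (0.0144) did not pass the test.

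Iron genes were more often lower than higher, with 3 of 21 (14.3%) up and 10 (47.6%) down. Over all genes tested 26.8% were lower, and among the most abundant genes 40.4%. FTH1, the ferritin heavy chain that stores iron, was at 3802, 3519.6 and 3552 CPM in the untreated libraries and 2625, 2831 and 2497 CPM at 24 h. TFRC, the transferrin receptor that brings iron in, was at 371, 441 and 432 CPM in the untreated libraries and 529.9, 496 and 529 CPM at 24 h. FTH1 changed by -0.45 ± 0.047 and TFRC by 0.32 ± 0.055, and in neither gene did the groups overlap. SLC40A1, the iron exporter ferroportin, was at 1.15, 1.16 and 0.862 CPM in the untreated libraries and 0.432, 0.602 and 0.501 CPM at 24 h and fell by 2.07-fold. SLC25A37, which brings iron into mitochondria, rose by 0.27 and the iron-sulfur scaffold ISCU by 0.29. Several processed copies of FTH1 share its sequence, and 6 of the 11 genes whose name starts with FTH were called lower, so their values are not independent of FTH1. Among 32 demethylases and hydroxylases that use iron and oxoglutarate, 7 rose and 10 fell, close to the background. KDM6B, which removes methyl groups from histone H3, rose by 0.76, and KDM3A fell by 1.39-fold.

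**Figure D3:**
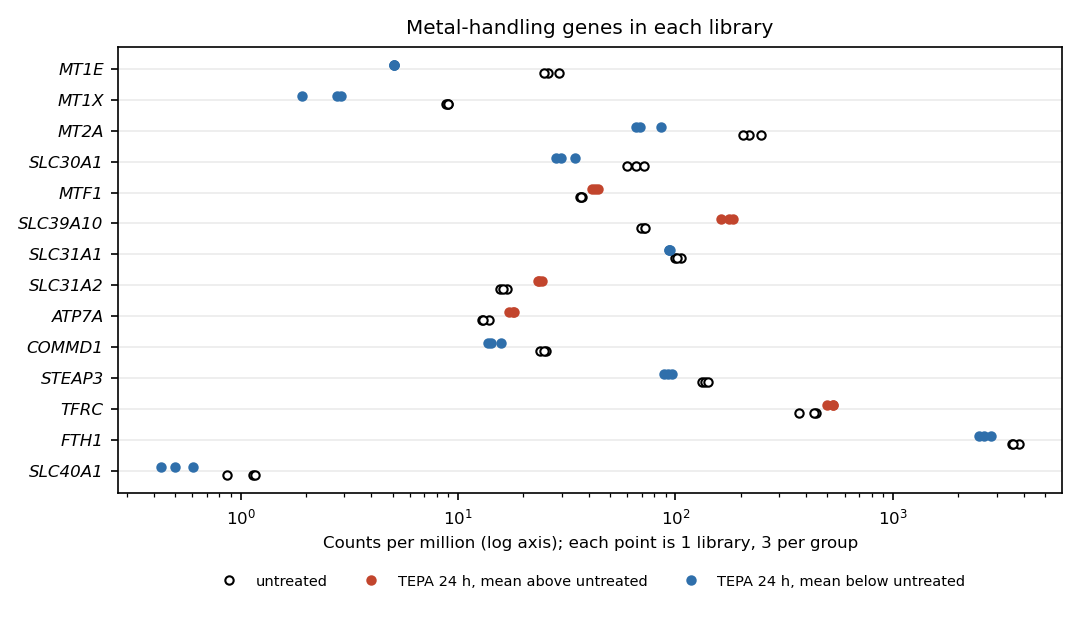
CPM on a log axis in each untreated (open) and TEPA 24 h (filled) library for 14 genes of zinc, copper and iron handling. The 3 metallothionein genes and SLC30A1 lie well below the untreated libraries, SLC39A10 well above, and the copper genes SLC31A1, SLC31A2 and ATP7A are shifted by less.

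Antioxidant genes were mostly lower. Of 30 tested targets of NRF2 and related enzymes, 18 fell and 4 rose, a median of -0.21. NQO1, a quinone reductase and a common readout of NRF2, was at 468, 507 and 475 CPM in the untreated libraries and 341, 343 and 348 CPM at 24 h. It fell by 1.41-fold. SLC7A11, the cystine importer that feeds glutathione synthesis, was at 167, 218 and 192 CPM in the untreated libraries and 89.9, 79.2 and 102.80 CPM at 24 h, a change of -1.09 ± 0.091. PGD, an NADPH-making enzyme of the pentose phosphate route, changed by -0.87, the catalase gene CAT by -0.62, TXNRD1 by -0.25 and GCLM by -0.23. The mitochondrial manganese enzyme SOD2 rose by 0.41, the peroxidase GPX1 by 0.30 and the transporter ABCC2 by 0.74. HMOX1, heme oxygenase, was at 0.0877 and did not pass the test.

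Nuclear genes for the respiratory chain were rarely higher. Of 76 nuclear genes for respiratory chain subunits, 34 (44.7%) fell and 3 rose, a median of -0.0974. That share of falls is near the 40.4% of the most abundant genes, while the share of rises, 3.95%, is below its 24.0%. NDUFS7, a complex I subunit, was at 92.8, 88.9 and 94.6 CPM in the untreated libraries and 56.4, 63 and 57.9 CPM at 24 h. It fell by 1.56-fold, NDUFB10 by 1.47-fold and NDUFS4 by 1.45-fold, whereas NDUFS1 (0.31) and NDUFS3 (0.28) rose. COX5A, a subunit of the copper enzyme cytochrome c oxidase, was at 0.0055 and did not pass the test.

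Coenzyme Q synthesis had 7 of 13 genes lower and 2 higher, COQ2 (0.24) among the latter. Besides COQ3, the methyltransferase COQ5 changed by -0.70, COQ10A by -0.67 and PDSS1, which makes the side chain, by -0.41. The second riser was COQ10B, whose call was lost without TEPA 24 h replicate 3, leaving 1.

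Among mitochondrial ribosomal proteins, 35 of 78 (44.9%) fell and 12 (15.4%) rose, against 40.4% and 24.0% of the most abundant genes. In the genes with a mean level of 30.4 to 75.9 CPM, 33.2% were lower and 30.1% higher. The largest falls were in 3 proteins of the large subunit. MRPL48 was at 33.4, 32.2 and 33.2 CPM in the untreated libraries and 12.6, 15.1 and 13.5 CPM at 24 h, MRPL1 at 20.1, 23.8 and 22.5 CPM in the untreated libraries and 10.7, 9.92 and 10.4 CPM at 24 h, and MRPL54 at 32, 31.8 and 31.3 CPM in the untreated libraries and 13.5, 14.7 and 16.6 CPM at 24 h. In each gene the treated libraries were all lower, with log2 changes of -1.26 ± 0.066, -1.10 ± 0.075 and -1.09 ± 0.066. MRPL45 (0.48), MRPS18B (0.37) and MRPL27 (0.34) rose. Of 20 genes for mitochondrial DNA upkeep and transcription, 5 rose and 3 fell. POLG2, the accessory subunit of the mitochondrial DNA polymerase, rose by 0.70, the helicase TWNK by 0.33 and POLRMT, the RNA polymerase, by 0.25, while TFAM (-0.027) did not pass the test.

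The number of mitochondrially encoded transcripts called lower depended on single libraries, while MT-CO3 fell under every alternative tried that kept it. Of 13 protein genes, 9 were called lower, with a median of -0.36 (-0.56 without untreated replicate 1 and -0.13 without untreated replicate 2). They held 1.43%, 2.40% and 1.73% of the counts of untreated libraries 1 to 3 and 1.56%, 1.46% and 1.5% of the treated ones, an exact two-sided permutation p of 0.4. Untreated library 2 was the highest and untreated library 1 the lowest of all 6, so the groups overlapped. Without untreated replicate 2 the number called lower was 2, without TEPA 24 h replicate 2 or replicate 3 it was 3, and DESeq2 called 1. MT-CO3, a cytochrome c oxidase subunit, was at 2174, 3406 and 2588 CPM in the untreated libraries and 1986, 1914 and 1925 CPM at 24 h. Its groups did not overlap, and it changed by -0.49 ± 0.10 with an edgeR adjusted p of 9.52e-04, or by -0.30 without untreated replicate 2.

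The pyruvate dehydrogenase and citric acid cycle list had 4 of 25 genes (16%) higher and 10 (40%) lower. Among the most abundant genes 24.0% were higher and 40.4% lower. LIAS, the iron-sulfur enzyme that makes the lipoyl cofactor of pyruvate dehydrogenase, was at 4.03, 4.86 and 4.54 CPM in the untreated libraries and 8.1, 6.83 and 7.95 CPM at 24 h. It rose by 1.7-fold. SUCLA2, the ATP-forming succinyl-CoA synthetase subunit, rose by 0.35, and SUCLG2, the alternative GTP-forming subunit, fell by 1.54-fold. Fumarase, FH, fell by 1.33-fold and MDH1 by 1.2-fold.

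Sterol synthesis and uptake genes were mostly lower. Of 25 tested genes, 16 were lower and 0 higher by edgeR (0 also at an unadjusted p under 0.05 and with DESeq2), a median of -0.29. INSIG1, which holds back the sterol-sensing SREBP factors and is itself their target, was at 145, 94.5 and 120.1 CPM in the untreated libraries and 55.8, 60.4 and 57.5 CPM at 24 h. It was lower in every treated library, with a log2 change of -1.05 ± 0.10 and an edgeR adjusted p of 4.97e-07. CYP51A1, a demethylase of lanosterol, changed by -0.99 and HMGCS1, an early enzyme of the mevalonate route, by -0.67. Without untreated replicate 1 the numbers were 12 lower and 1 higher and the median was -0.16, and without untreated replicate 2 the median was -0.41. Of 10 genes of cholesterol efflux and LXR, the sterol-sensing nuclear receptor, 3 rose and 1 fell (0 without untreated replicate 1, TEPA 24 h replicate 1 or TEPA 24 h replicate 3). The LXR targets ABCA1 (-0.082) and ABCG1 (0.35) did not pass the test. The risers included MYLIP (0.26), also a target of LXR, and NR1D1 (0.52), which is described with the clock genes below.

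Fatty acid genes followed the same direction. Of 43 tested, 24 fell and 10 rose. SCD, the desaturase that makes monounsaturated fatty acids, was at 1829, 1136 and 1411 CPM in the untreated libraries and 877, 992 and 915 CPM at 24 h, and FADS2, a desaturase of polyunsaturated ones, was at 584, 314 and 404 CPM in the untreated libraries and 198, 238 and 205 CPM at 24 h. SCD changed by -0.65 ± 0.11 and FADS2 by -1.02 ± 0.15, with no overlap between groups, and FASN, the fatty acid synthase, by -0.53. The endothelial-type lipase LIPG (-1.46), ANGPTL4, an inhibitor of lipoprotein lipase (-1.16), and the droplet coat gene PLIN2 (-0.37) fell. The risers included DGAT2 (0.83), which makes triglycerides, PNPLA2 (0.54), which cleaves them, and PPARA (0.52), a regulator of fat oxidation.

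The carbonic anhydrases of the hypoxia response fell steeply. CA9 was at 5.73, 2.65 and 3.83 CPM in the untreated libraries and 0.588, 0.741 and 0.334 CPM at 24 h, and CA12 at 27, 21.6 and 21.6 CPM in the untreated libraries and 6.38, 6.05 and 6.65 CPM at 24 h. NDRG1, another gene switched on by low oxygen, was at 77.4, 55.3 and 61.6 CPM in the untreated libraries and 30.4, 32.6 and 29.6 CPM at 24 h. All treated libraries were below all untreated ones, with log2 changes of -2.83 ± 0.31, -1.88 ± 0.093 and -1.07 ± 0.090. The list as a whole had 12 of 20 lower and 1 higher, and 2 were called higher without untreated replicate 1 or replicate 2. HIF1A, the oxygen-regulated factor itself, changed by -0.23, and the vascular growth factor VEGFA, at 0.0756, did not pass the test. The riser was the peptide hormone ADM (0.35).

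Glycolysis genes were mostly lower, while TXNIP and several regulators rose. Of 30 tested genes of glycolysis and of glucose and lactate transport, 19 (63.3%) fell and 7 (23.3%) rose. Among the most abundant genes 40.4% fell and 24.0% rose. HK2, which traps glucose as its phosphate, was at 62.3, 79.1 and 71.5 CPM in the untreated libraries and 43.6, 43.6 and 40.8 CPM at 24 h, a 1.66-fold fall, and ALDOC (-0.76) and SLC2A1 (-0.18), the main glucose transporter, also fell. TXNIP, an arrestin-like protein that restrains glucose uptake, was at 44.5, 36.4 and 34.6 CPM in the untreated libraries and 99.4, 102.95 and 95.1 CPM at 24 h, a rise of 1.37 ± 0.068 with no overlap. PDK4, which switches off pyruvate dehydrogenase, rose by 0.58. Of the bifunctional enzymes that set the allosteric activator of phosphofructokinase, PFKFB4 rose by 0.91 and PFKFB2 fell by 1.6-fold, while PFKFB3 was at -0.004.

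Targets of ATF4, the transcription factor of the integrated stress response, moved in both directions. Of 32 tested targets, 12 rose and 11 fell. GDF15 was at 45, 26.9 and 30.4 CPM in the untreated libraries and 6.55, 6.51 and 6.48 CPM at 24 h, and DDIT3, which encodes the stress factor CHOP, was at 9.84, 10.8 and 9.23 CPM in the untreated libraries and 4.26, 4.63 and 4.12 CPM at 24 h. Both fell with no overlap (-2.38 ± 0.15 and -1.20 ± 0.093), and ATF4 itself changed by -0.16 and the pseudokinase TRIB3 by -0.34. DDIT3 overlaps an unnamed gene on its own strand, so its counts are less certain. ASNS, asparagine synthetase, was at 1.41, 1.44 and 1.17 CPM in the untreated libraries and 1.98, 2.69 and 2.84 CPM at 24 h, a rise of 0.88 ± 0.18, and the secreted glycoprotein STC2 (0.88), the cysteine-forming enzyme CTH (0.72) and the glycine transporter SLC6A9 (0.72) rose as well.

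Chaperones of the endoplasmic reticulum were mostly lower, 20 of 30 (66.7%) against 2 (6.67%) higher. Among the most abundant genes 40.4% were lower and 24.0% higher. HSPA5, the lumenal chaperone BiP, was at 1069.6, 991 and 1022 CPM in the untreated libraries and 736, 767 and 722 CPM at 24 h, a change of -0.47 ± 0.038. DNAJB9 (-0.63) and SDF2L1 (-0.79), co-chaperones of BiP, and CALR (-0.36) fell, XBP1 was at -0.013, and EDEM2, which trims glycans of misfolded proteins, rose by 0.53. Cytosolic heat shock genes gave 16 of 25 (64%) lower and 2 (8%) higher. HSPB1 (-0.52), HSPB8 (-0.73), FKBP4 (-0.65) and DNAJB1 (-0.38) fell, HSPA4L rose by 0.71, and HSF1, the factor that switches them on, was at 0.0341. The few risers of these lists varied: without TEPA 24 h replicate 3 the first had 1, and without untreated replicate 1 or TEPA 24 h replicate 1 the second had 1. Of 39 Golgi and secretory genes, 20 (51.3%) fell and 3 (7.69%) rose. ARF3 (-0.50), GORASP1 (-0.51) and the membrane-bound factor CREB3L1 (-0.49) fell most among those named.

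Of 44 proteasome genes, 21 (47.7%) fell and 8 (18.2%) rose, against 40.4% and 24.0% of the most abundant genes. PSMB6, a catalytic subunit of the constitutive proteasome, was at 215, 212 and 212 CPM in the untreated libraries and 146, 152 and 152 CPM at 24 h (-0.51 ± 0.034). PSMB9, its replacement in the immunoproteasome, was at 32.9, 26.7 and 30.5 CPM in the untreated libraries and 39.4, 41.3 and 36.3 CPM at 24 h (0.38 ± 0.071), and PSMB10, another such replacement, rose by 0.40. The groups of PSMB6 and those of PSMB9 did not overlap. Lysosomal genes had 10 of 45 higher and 20 lower, near the shares of abundant genes. The proteases CTSH (-0.80) and CTSL (-0.56) fell, CTSS (0.63) and the V-ATPase subunits ATP6V0A1 (0.50) and ATP6V1A (0.49) rose. Autophagy genes had 13 of 37 higher and 9 lower, and without untreated replicate 2 the numbers were 10 and 10. GABARAPL1, which coats autophagosomes, was at 16.3, 11.6 and 13.8 CPM in the untreated libraries and 29.1, 28.4 and 29.5 CPM at 24 h, a 2.09-fold rise. The receptors NBR1 and SQSTM1 went opposite ways, by 0.59 and -0.65. Of 30 genes of the mTOR complexes and their regulators, 8 rose and 7 fell, AKT1S1, an inhibitory subunit, by 0.61, while MTOR (-0.032) and RPTOR (-0.031) did not pass the test.

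In polyamine metabolism ODC1, AMD1 and SMS fell, while ARG2 and SAT1 rose. ARG2, which makes the ornithine from which polyamines start, was at 4.21, 3.35 and 3.37 CPM in the untreated libraries and 19, 19.2 and 18.8 CPM at 24 h, with no overlap. The rate-setting synthetic enzymes ODC1 (-0.42) and AMD1 (-0.66) and spermine synthase, SMS (-0.47), fell. SAT1, which acetylates spermidine and spermine for export and breakdown, was at 56.1, 38.9 and 41.8 CPM in the untreated libraries and 75.1, 81.4 and 78.2 CPM at 24 h, a rise of 0.78 ± 0.092, and the spermine oxidase SMOX fell by 1.35-fold. Over the list 3 of 17 (17.65%) were higher and 7 (41.2%) lower, against 24.0% and 40.4% of the most abundant genes. Serine, folate and nucleotide synthesis stayed near the background, with 8 of 27 up and 8 down and no member beyond 0.5 on the log2 scale.

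Interferon-stimulated genes were mostly higher. Of 38 tested, 22 (57.9%) were higher and 3 lower, with a median change of 0.25. IRF7, the factor that amplifies the interferon response, was at 11.6, 9.72 and 10.5 CPM in the untreated libraries and 19.2, 21.5 and 18.9 CPM at 24 h. IFIH1, which encodes the viral RNA sensor MDA5, was at 14.7, 13.6 and 13.5 CPM in the untreated libraries and 24.4, 25.9 and 25.4 CPM at 24 h, and DHX58, a relative of it, at 6.96, 6.76 and 6.62 CPM in the untreated libraries and 13.1, 12.2 and 11.4 CPM at 24 h. The 3 genes were picked among called members whose groups did not overlap. Their rises were 0.91 ± 0.081, 0.86 ± 0.061 and 0.85 ± 0.084, with edgeR adjusted p-values of 1.74e-07, 1.54e-08 and 5.16e-07. MX1, an antiviral GTPase, rose by 0.41. The list was not uniform, since ISG15 (-0.11) did not pass the test, and BST2, which tethers budding virus, fell by 1.29-fold and the GTPase GBP1 by 1.15-fold. Of 17 genes of MHC class I presentation, 9 rose and 4 fell. The risers included the peptide transporter genes TAP1, at 110.3, 97.5 and 104 CPM in the untreated libraries and 154, 157 and 142 CPM at 24 h (0.54 ± 0.052), and TAP2 (0.58), and the trimming peptidase ERAP1 (0.70), whereas HLA-E fell by 1.23-fold and B2M, the shared light chain, was at 0.0391.

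Genes under NF-kB and the cytokine genes split. BIRC3, an inhibitor-of-apoptosis ligase switched on by NF-kB, was at 33.4, 31.3 and 33.8 CPM in the untreated libraries and 139, 126 and 141 CPM at 24 h. NFKBIA, the inhibitor that NF-kB induces against itself, was at 74.7, 58 and 62 CPM in the untreated libraries and 102, 109 and 102 CPM at 24 h, and CSF1, the macrophage growth factor, at 414, 309.6 and 339 CPM in the untreated libraries and 575, 637 and 562 CPM at 24 h. The groups did not overlap, and the rises were 2.04 ± 0.060, 0.69 ± 0.070 and 0.74 ± 0.078. The NF-kB subunit REL rose by 0.79. IL11, a cytokine of the IL6 family, was at 454, 464 and 483 CPM in the untreated libraries and 244, 246 and 240.5 CPM at 24 h and fell by 1.92-fold, and IL1B fell from 1.87, 0.876 and 1.6 to 0.667, 0.486 and 0.528 CPM. CSF3 (-0.59) and IL7R (-0.50) fell too, while IL6 (0.27) and CXCL8 (0.14) did not pass the test. The list had 8 of 29 higher and 8 lower, but 15 were higher without untreated replicate 1.

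**Figure D4:**
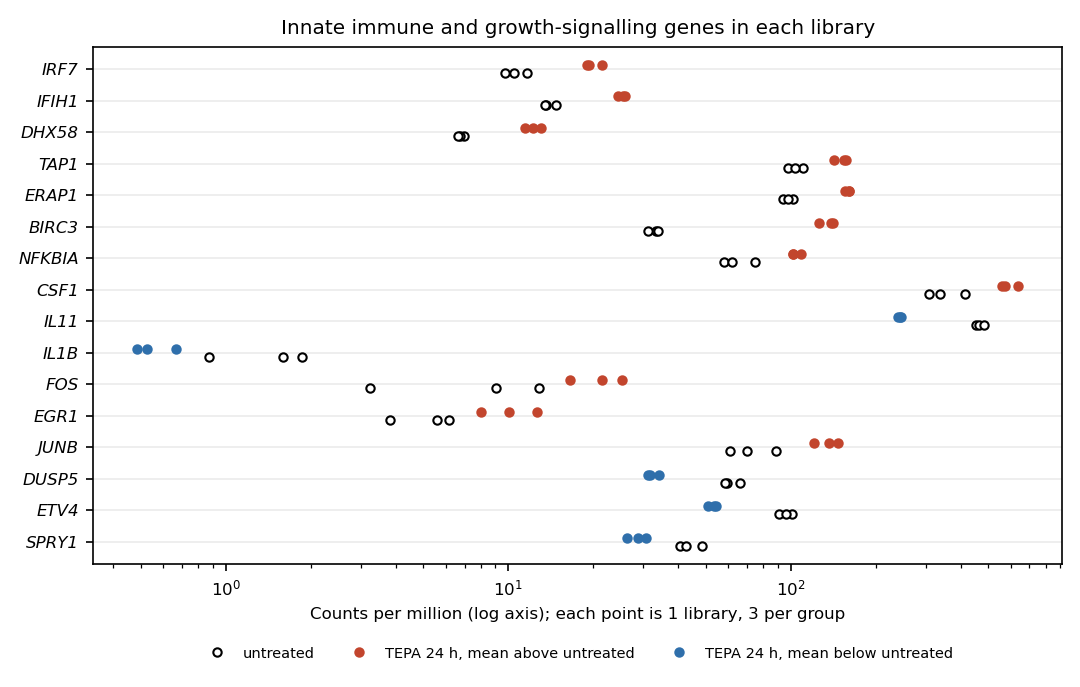
CPM on a log axis in each untreated (open) and TEPA 24 h (filled) library for 16 genes of innate immunity, NF-kB, cytokines, immediate early response and ERK feedback. IRF7, IFIH1, DHX58 and BIRC3 are higher in all 3 treated libraries and DUSP5, ETV4 and IL11 lower, while the untreated libraries spread most for FOS.

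Of 36 immediate early and ERK feedback genes, 18 were lower and 7 higher. FOS, an immediate early gene, was at 12.9, 3.24 and 9.05 CPM in the untreated libraries and 21.5, 25.3 and 16.6 CPM at 24 h, EGR1 at 6.16, 3.81 and 5.6 CPM in the untreated libraries and 10, 12.6 and 8.04 CPM at 24 h and JUNB at 88.6, 60.8 and 70.1 CPM in the untreated libraries and 136, 147 and 121 CPM at 24 h. All treated libraries were above all untreated ones, and the log2 rises were 1.36 ± 0.35, 0.99 ± 0.16 and 0.88 ± 0.10. The untreated values of FOS ranged widely, and DESeq2 gave it an adjusted p of 0.0752. The ERK phosphatase DUSP5 was at 65.9, 59.7 and 58.5 CPM in the untreated libraries and 31.2, 34.1 and 31.7 CPM at 24 h, and ETV4, a transcription factor that ERK signalling induces, was at 101, 91.1 and 96.1 CPM in the untreated libraries and 53.4, 54.5 and 50.8 CPM at 24 h. Both fell (-0.92 ± 0.054 and -0.86 ± 0.045), as did DUSP6 (-0.46) and SPRY1 (-0.62), an inhibitor of receptor tyrosine kinase signalling. MYC changed by -0.22, and JUN (-0.005) did not pass the test.

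Of 23 tested receptor tyrosine kinases and EGF-family ligands, 10 (43.5%) fell and 6 (26.1%) rose, near the 40.4% and 24.0% of the most abundant genes. Over all genes tested 26.8% fell and 25.7% rose. EGFR was at 391, 466 and 447 CPM in the untreated libraries and 335, 332 and 333 CPM at 24 h and ERBB2 at 87.1, 77.3 and 79.7 CPM in the untreated libraries and 51.9, 53.8 and 53.1 CPM at 24 h, changes of -0.38 ± 0.051 and -0.62 ± 0.049 with no overlap. FGFR1 (-0.50), MET (-0.23), AXL (-0.24) and the ligand EREG (-0.45) also fell. PDGFRB, a receptor typical of mesenchymal cells, was at 41.2, 28.7 and 32.7 CPM in the untreated libraries and 93.1, 99.4 and 91.1 CPM at 24 h, a 2.78-fold rise. Notch genes fell, with 12 of 22 lower and 1 higher (2 higher without untreated replicate 2). NOTCH3 was at 15.4, 7.68 and 10 CPM in the untreated libraries and 5.32, 6.56 and 6.48 CPM at 24 h, a fall of 1.8-fold, and NOTCH1 (-0.46), the ligand JAG1 (-0.42) and the targets HES4 (-0.85) and HES1 (-0.22) changed the same way. MFNG, a fringe enzyme that glycosylates Notch, rose by 0.71.

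The ID genes, which encode inhibitors of basic helix-loop-helix factors and are classic targets of bone morphogenetic protein (BMP) signalling, rose together. ID2 was at 6.37, 6.9 and 5.93 CPM in the untreated libraries and 20.9, 18 and 20.8 CPM at 24 h, with a rise of 1.63 ± 0.080, and ID1 (0.58) and ID3 (0.47) rose by less. SMAD6, an inhibitory SMAD that BMP induces, was at 52.8, 38.9 and 41.9 CPM in the untreated libraries and 95.9, 102 and 95.8 CPM at 24 h, a 2.2-fold rise, while the signal carrier SMAD1 fell by 1.57-fold. The list had 10 of 19 higher and 6 lower, with changes from -1.99 to 1.63, so its largest change was a fall. Of 23 YAP and TAZ targets, 8 rose and 11 fell. ANKRD1 (-0.96), IGFBP3 (-1.06), NT5E (-0.61) and CCN2 (-0.37) fell, and PTPN14 (0.62) and TGFB2 (0.60) rose.

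Cell cycle genes fell slightly in mitosis and moved in both directions in S phase. Of 50 mitotic genes, 26 (52%) fell and 3 (6%) rose (median change -0.0962). CCNA2, a cyclin of S phase and mitosis, was at 132, 139 and 141 CPM in the untreated libraries and 95.2, 92.9 and 100.4 CPM at 24 h, and PLK1, a mitotic kinase, at 224, 241 and 235 CPM in the untreated libraries and 171, 176 and 162 CPM at 24 h. The changes were -0.51 ± 0.040 and -0.46 ± 0.040, without overlap, and CDK1 changed by -0.20. Among 50 replication genes 18 (36%) fell and 12 (24%) rose, 6 without TEPA 24 h replicate 1. Of the most abundant genes 40.4% fell and 24.0% rose. CDC6, which loads the replicative helicase, changed by -0.46, and PRIM1, a primase subunit, by 0.46, while PCNA was at 0.0686. Of 16 cyclins and inhibitors of their kinases, 6 rose and 5 fell. CDKN1A, which encodes the inhibitor p21, was at 49.1, 42.5 and 47.1 CPM in the untreated libraries and 61.7, 62.4 and 58.9 CPM at 24 h (0.40 ± 0.052), CDKN2D rose by 0.51 and CDKN1C fell by 1.95-fold.

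Genes for homologous recombination and the Fanconi anemia route, which repair broken and crosslinked DNA, rose. Of 35 tested, 20 (57.1%) were higher and 5 lower (3 without TEPA 24 h replicate 3), with a median of 0.15. ATM, the kinase that senses broken ends, was at 52.1, 51 and 53.6 CPM in the untreated libraries and 88.6, 84.1 and 90 CPM at 24 h, and BRCA2, which loads the strand-exchange protein, at 36.5, 48.4 and 48.8 CPM in the untreated libraries and 74.1, 61.2 and 74.6 CPM at 24 h. XRCC2 was at 25.1, 27.7 and 26.1 CPM in the untreated libraries and 39.8, 35.9 and 39 CPM at 24 h. The treated libraries were the higher in each case, with changes of 0.75 ± 0.041, 0.65 ± 0.094 and 0.54 ± 0.054. BRCA1 rose by 0.23, and its partner BARD1 fell by 1.33-fold.

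The targets of p53, which is mutant in MDA-MB-231, gave 11 of 28 higher and 8 lower. TP53INP1 was at 7.2, 6.22 and 6.01 CPM in the untreated libraries and 13, 13.4 and 13.7 CPM at 24 h (1.04 ± 0.082), and the RNA-binding protein ZMAT3 (0.95) and MDM2 (0.31) rose. PHLDA3 (-1.0), PLK3 (-0.81) and PLK2 (-0.46) fell. Of 24 regulators of apoptosis, 13 (54.2%) fell and 6 (25%) rose, against 26.8% and 25.7% of all genes tested. BMF, a BH3-only death activator, was at 11.9, 8.36 and 9.31 CPM in the untreated libraries and 22.6, 22.2 and 22.3 CPM at 24 h, a 2.28-fold rise, BBC3, which encodes PUMA, rose by 0.60 and BCL2L11, which encodes BIM, by 0.32. The inhibitors BIRC3 and BIRC2 (0.69) rose as well, and MCL1, a guard against death, fell by 1.32-fold. Replication-dependent histone genes, whose normal transcripts lack a poly(A) tail, were seen at low levels, and 19 of 66 passed the filter. 6 of those (31.6%) rose and 0 were called lower by edgeR or DESeq2 (0 also at an unadjusted p under 0.05). Over all genes tested 25.7% rose, and in the 3312 genes with the lowest level 15.9% rose and 8.61% fell. The histone genes held 0.00660% to 0.00679% of the untreated counts and 0.00787% to 0.00821% of the treated ones (exact two-sided permutation p of 0.1). H2BC21 rose by 0.72 and H1-2 by 0.30.

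Splicing factors, ribosome biogenesis factors and tRNA synthetases were mostly lower. Of 41 SR proteins, their kinases and heterogeneous nuclear ribonucleoproteins, 25 (61.0%) fell and 8 (19.5%) rose. Among the most abundant genes 40.4% fell and 24.0% rose. HNRNPA1 was at 802, 893 and 878 CPM in the untreated libraries and 686, 666 and 709 CPM at 24 h, with a change of -0.32 ± 0.042, HNRNPM fell by 1.33-fold and the splicing activator TRA2A by 1.38-fold. DDX17, an RNA helicase, was at 221, 222 and 222 CPM in the untreated libraries and 362, 351 and 361 CPM at 24 h, a rise of 0.69 ± 0.034, and CLK4, a kinase of SR proteins, rose by 0.48. Ribosome biogenesis had 23 of 42 (54.8%) lower and 4 (9.52%) higher (1 without untreated replicate 1, 2 without untreated replicate 3 or TEPA 24 h replicate 1). WDR75 (-0.78), BOP1 (-0.50) and NOP56 (-0.34) were among the falls. Of 20 cytosolic aminoacyl-tRNA synthetases, which charge tRNAs, 12 (60%) fell and 3 (15%) rose. AARS1, for alanine, was at 172, 158 and 153 CPM in the untreated libraries and 99.6, 102.90 and 95.3 CPM at 24 h, a 1.62-fold fall, and LARS1, for leucine, rose by 0.38.

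Cytosolic ribosomal protein genes changed little. 22 of 81 fell and 4 rose, with a median of -0.0437 (-0.0253 without untreated replicate 2), and they held 4.34% to 4.44% of the untreated counts and 4.36% to 4.55% of the treated ones (exact two-sided permutation p of 0.6). RPL10 stood apart at 524, 541 and 538 CPM in the untreated libraries and 307, 329 and 293 CPM at 24 h, a fall of 1.72-fold. Of 25 noncoding hosts of small nucleolar RNAs, 6 rose and 7 fell (11 without untreated replicate 1). EPB41L4A-AS1 was at 7.97, 7.57 and 8.37 CPM in the untreated libraries and 19.5, 20.4 and 18.9 CPM at 24 h, a 2.46-fold rise, and SNHG11 at 6.48, 5.98 and 7.02 CPM in the untreated libraries and 2.81, 3.1 and 3.0 CPM at 24 h, a 2.19-fold fall. Of 11 nuclear-retained noncoding RNAs, 5 rose and 2 fell (1 without untreated replicate 2 or TEPA 24 h replicate 1 or 2). MALAT1 rose by 0.45 and NORAD by 0.36, whereas NEAT1, the scaffold of paraspeckles, was at 48.9, 58.3 and 51.6 CPM in the untreated libraries and 30, 27.1 and 34.2 CPM at 24 h, a fall of 1.75-fold.

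Cytoskeletal genes were more often lower than higher, as the most abundant genes were in general (40.4% lower and 24.0% higher). Of 35 actin and serum response factor genes, 18 (51.4%) fell and 4 (11.4%) rose (2 without TEPA 24 h replicate 1). PDLIM7 (-0.82), TAGLN2 (-0.41) and ACTB (-0.15) were among the falls. Of 15 tubulins and their regulators, 7 (46.7%) fell and 2 (13.3%) rose. TTC5, which recognises newly made tubulin to trigger decay of its message, was at 22.4, 20.4 and 22.7 CPM in the untreated libraries and 5.59, 6.37 and 5.56 CPM at 24 h, a change of -1.90 ± 0.078. Integrins, collagens, laminins and other matrix genes stayed near the background, 16 of 58 up and 19 down, with 32 more too low to test. COL15A1, a basement membrane collagen, was at 4.93, 3.28 and 3.98 CPM in the untreated libraries and 18, 16.5 and 15.8 CPM at 24 h, a 4.15-fold rise, and COL4A1, the main collagen of that layer, was at 234, 219.8 and 228 CPM in the untreated libraries and 131, 130.3 and 135 CPM at 24 h, a 1.72-fold fall. ITGA10 (1.76) and COL9A3 (1.37) rose, and LTBP1, which stores latent TGF-beta in the matrix, fell by 1.46-fold. HAS2, a hyaluronan synthase, fell by 2.51-fold, the largest change named among 28 glycosyltransferases, of which 8 fell and 5 rose (3 without untreated replicate 2, untreated replicate 3 or TEPA 24 h replicate 2).

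Several clock genes rose, and the synaptic genes extended beyond the 2 largest changes. Of 18 circadian genes, 9 rose and 6 fell. PER1, a repressor of the clock, was at 17.6, 15.6 and 17.1 CPM in the untreated libraries and 39.1, 42.7 and 34.9 CPM at 24 h, and TEF, a clock-controlled transcription factor, was at 9.76, 8.01 and 8.39 CPM in the untreated libraries and 22.9, 23.1 and 22.4 CPM at 24 h. The groups did not overlap, and the rises were 1.22 ± 0.071 and 1.39 ± 0.074. PER3 (0.93) and the nuclear receptor NR1D1 (0.52) rose, DBP was at 0.0977 and did not pass the test, and NPAS2 (-0.41) and NFIL3 (-0.34) fell. Clock activators bind the E-box CACGTG, which reads the same on both strands. It was present in the 250 bases before the start of PER1 and before both starts of TEF, absent from those of PER3, NR1D1 and DBP, and held by 6.35% of all promoters. The stretches of 80 bases around it (RefSeq, GRCh38.p14) are printed 5′ to 3′ with the E-box in capitals, for PER1 at chr17:8152535-8152614 on the minus strand and for TEF at chr22:41367223-41367302 and chr22:41381712-41381791 on the plus strand.
PER1: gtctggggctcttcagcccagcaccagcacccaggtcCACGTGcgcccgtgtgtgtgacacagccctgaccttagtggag
TEF, start 1: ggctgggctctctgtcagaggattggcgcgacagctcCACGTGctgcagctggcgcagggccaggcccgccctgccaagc
TEF, start 2: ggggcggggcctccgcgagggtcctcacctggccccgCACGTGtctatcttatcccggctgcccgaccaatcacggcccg

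The list of 26 synaptic and neuroendocrine genes counts in REST, the repressor it is built around, and the corepressor RCOR1. Of the 26, 15 were expressed enough to test, and 10 of those rose and 3 fell. REST was among the risers, though 5 of 14 alternatives lost its call, and RCOR1 was among the falls. With the replicate block 7 rose, and with 1 library left out 7 to 9. SCG2, a secretory granule protein, was at 11, 7.77 and 9.13 CPM in the untreated libraries and 21.3, 20.5 and 20.6 CPM at 24 h, a 2.25-fold rise. VGF, a neuropeptide precursor, fell by 1.53-fold and STX1A, a syntaxin of vesicle fusion, by 1.18-fold. Of the markers of neuroblastoma and glia, PHOX2A, HAND2, SOX10, OLIG1 and OLIG2 had no count in any library, DBH reached at most 3 and GFAP 8. TH, which encodes the rate-limiting enzyme of catecholamine synthesis, had 3, 6 and 2 counts in the untreated libraries and 16, 5 and 6 at 24 h, a change of 1.17 ± 0.57 with an edgeR adjusted p of 0.0987 and overlapping groups. CD34 and PECAM1, which also mark endothelium, rose by 2.29 and 1.18, while the endothelial markers VWF and CDH5 each reached at most 3 counts in any library. Among the 14 marker genes of the line, 4 rose and 7 fell. S100A4, a calcium-binding protein of motile cells that overlaps S100A3 on its strand, was at 10.9, 7.88 and 9.46 CPM in the untreated libraries and 23.8, 26.5 and 25.1 CPM at 24 h, a 2.68-fold rise, and PLAU, the urokinase gene, fell by 1.7-fold.

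The 454 expressed genes named ZNF stayed at the background as a group, with 109 higher and 107 lower and a median of 0.0243 (0.0129 without untreated replicate 3). Single members moved strongly. ZNF143, an activator of small nuclear RNA and many housekeeping promoters, was at 25.8, 28.5 and 26.4 CPM in the untreated libraries and 68.8, 66.8 and 65.6 CPM at 24 h, a 2.49-fold rise. ZNF22 was at 47.6, 48.1 and 45 CPM in the untreated libraries and 11.9, 11.8 and 12.5 CPM at 24 h, a 3.89-fold fall. In neither did the groups overlap. Nuclear pore genes had 6 of 31 higher and 10 lower, and AAAS, which encodes the pore protein ALADIN, was at 45.2, 40.8 and 42.3 CPM in the untreated libraries and 16.1, 16.8 and 17.6 CPM at 24 h, a 2.54-fold fall.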

How the data were processed

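RNA from 3 untreated samples of MDA-MB-231 cells and 3 kept 24 h in TEPA was sequenced by the study as strand-specific, paired-end mRNA libraries. The authors deposited raw counts per gene name, made by aligning to hg38 with HISAT2 and counting exon fragments on the matching strand with featureCounts against an Ensembl annotation of GRCh38, after FastQC. The tool and build names also stand in the submitters' processing notes. The deposited table has 59453 gene names. From these counts, all 9 libraries were fitted with edgeR 4.0.16 (quasi-likelihood test, TMM factors, filterByExpr with a minimum count of 10) in R 4.3.3, with the Benjamini-Hochberg adjustment taken across the 16556 genes tested. A gene in a list was called at an adjusted p under 0.05. Counts of genes over the whole table also used a log2 limit of 0.5. CPM values are scaled by TMM library sizes. Library totals ran from 34633755 to 49342659, and the common biological coefficient of variation was 0.0481. The SE is the absolute log2 change over the square root of the F statistic. Shares of counts were compared by an exact two-sided permutation test.

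The members and the 59 gene lists were chosen with earlier results of these data known, and list counts are descriptions with no set test. Genes were named by rule. The first part takes the 10 highest and 10 lowest changes among called genes with a mean of at least 100 counts, groups that do not overlap and no clone name. The second takes, per list, fixed key genes and up to 3 members at each end under the same conditions. The third takes all members of lists with at most 5 tested. A few genes that meet the rule are not reported here. Genes outside this rule appear only as neighbours, copies or background. Genes that overlap another on the same strand, pseudogenes and near-identical copies have less certain counts. Positions come from GENCODE on hg38 and promoter sequences from RefSeq on GRCh38.p14. The test was tried on simulated data. The alternatives tried were DESeq2 1.42.0, upper-quartile or RLE scaling, other filters, a fit of the 2 groups alone, a replicate block, leaving out mitochondrially encoded genes, other fold limits and leaving out each replicate.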

Additional observations from a re-analysis of the deposited data

Results flagged for a closer look

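The 8 h libraries were set beside the 24 h libraries only for named genes called in opposite directions at the 2 times whose difference between the times was itself called (edgeR's quasi-likelihood test, adjusted p under 0.05). Of 16556 genes tested, 1143 met this, as did 68 of the 469 named genes. Both times share the untreated libraries. Of the 12 named genes with a log2 change beyond 0.5 at both times, 11 are given here, in the order 24 h then 8 h.

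The surface protein gene CD34 was at 2.29 and then -2.75, and PECAM1, another gene of endothelium, at 1.18 and -1.76. COL15A1, a basement membrane collagen, gave 2.05 and -0.66. S100A4, a calcium-binding protein of motile cells, gave 1.42 and -0.55. The death activator BMF was at 1.19 and -0.51, and BBC3, which encodes PUMA, at 0.60 and -0.53. GABARAPL1, of the autophagosome coat, had 1.06 and -0.53. The viral RNA sensor gene IFIH1 had 0.86 and -0.70. CSF1, the macrophage growth factor, stood at 0.74 and -0.79. The histone gene H2BC21 stood at 0.72 and -0.58. In the opposite sense, the paraspeckle RNA NEAT1 was at -0.80 and 0.84.

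No cause was tested for these turns.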

How the results depend on the processing

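The numbers of genes higher and lower, 1695 and 1400, were within 1.5 times of these under every alternative that kept the log2 limit of 0.5, running from 1409 to 1831 and from 1198 to 1496. Leaving out 1 replicate in turn gave 1536 to 1721 higher and 1319 to 1400 lower. With no fold limit the numbers were 4253 and 4435, and with a limit of 1 they were 650 and 468, as fewer or more genes pass by construction. The replicate numbers are only a number here: deviations of same-numbered libraries correlated at -0.0801, -0.0304 and 0.0254, and the replicate block gave 1654 higher and 1379 lower. No named gene turned direction in any alternative with a call. The median change of all genes stayed between 0 and 0.0287 under every alternative. In lists with few members called higher, upper-quartile factors gave 5 aminoacyl-tRNA synthetases, 4 heat shock genes and 3 Notch genes, and the cause was not tested. Mitochondrially encoded genes called lower were 1 with DESeq2 and 12 with no filter. Depth limits genes with few counts. Many of them failed the filter and were not tested, while some that passed, such as TH, had under 10 counts in several libraries.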

Other observations

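Genes were also grouped by the letters before the first digit of their name, taking the 195 stems with at least 10 tested genes. The highest medians were CYP, with the cytochrome P450 genes, at 0.34 (10 of 23 higher, 7 lower), DNAH, the axonemal dynein heavy chains, at 0.33 (6 of 11 higher, 1 lower), SMG, with nonsense-mediated decay factors and their copies, at 0.32 (6 of 11 higher, 1 lower), IRF, the interferon regulatory factors and genes named after them, at 0.25 (8 of 11 higher), and GPR, a set of G protein-coupled receptors, at 0.24 (17 of 32 higher, 5 lower). The lowest were FTH at -0.45, HNRNPA at -0.33 (9 of 18 lower, 1 higher), NOP, nucleolar proteins, at -0.29 (7 of 10 lower, 1 higher), CHCHD, small mitochondrial proteins, at -0.27 (4 of 12 lower, 1 higher), and SEMA, the semaphorin guidance cues, at -0.24 (9 of 17 lower, 4 higher). The FTH and HNRNPA stems are made up largely of pseudogenes that share reads with their parent gene.

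By gene class, 27.3% of 912 tested long noncoding RNAs were higher and 14.0% lower, with a median of 0.13, and 27.2% of 12663 protein-coding genes were higher and 31.8% lower, with a median of -0.0160.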
